A study of Gossypium hirsutum with 24 samples.

Results

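Cotton bolls infested with bollworm (BS) held less transcript for nearly every tubulin and most actins of this set than noninfested control bolls (CN), and the difference was widest at 10 days post anthesis (dpa). The set comprises 45 of the 23977 cotton probe sets tested on the Affymetrix Cotton GeneChip. A probe set was taken when its description in a readable supplementary table of the study held the text tubulin or the whole word actin. By those descriptions 11 were alpha-tubulins, 12 beta-tubulins, 1 a gamma-tubulin, 1 a tubulin folding cofactor, 12 actins and 3 actin-binding proteins. A further 5 were tubulins matched only to Arabidopsis TUA5 through the hormone table, which gives that alpha-tubulin also for probe sets that other tables call beta-tubulin, so their class was left unstated. The tables list differentially expressed transcripts (DETs), so the members were chosen by the measured difference between BS and CN. That difference is therefore only described for the members. Their p-values are not printed, and a member called down- or up-regulated is one past the thresholds given below, which the choice itself favoured. P-values are given for some changes between stages, which reuse arrays of that contrast. They are also given for actin probe sets that the tables did not pick, which were thereby mostly below its fold threshold.

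Bolls of field-grown Gossypium hirsutum cv. Bikaneri narma were profiled on 24 arrays, 3 for each of 8 groups. The BS groups were bolls at 0 dpa after 8 h with a Helicoverpa armigera larva and at 2, 5 and 10 dpa, and the CN groups were uninfested bolls named for the same stages. Plants of both plots had been sprayed with insecticide against sucking pests early in the season, and the labels name no transgene. Each replicate was a pool of bolls from 5 plants, and infested and control plants stood in different plots, so plot and infestation cannot be told apart. At 0 and 2 dpa the boll was sampled whole, whereas only the infested portion of BS bolls was sampled at 5 and 10 dpa. At 10 dpa the larva had been removed after 5 days and the boll had grown on, by the methods for 10 days, so these BS bolls could be older than their label and the age of the matching CN bolls is not stated separately.

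Microtubules are hollow polymers of alpha- and beta-tubulin pairs, nucleated by gamma-tubulin, and actin monomers polymerise into microfilaments whose growth and turnover are set by binding proteins such as depolymerizing factors and capping proteins. In dividing plant cells microtubules form the preprophase band, spindle and phragmoplast, while in growing cells cortical microtubules guide the deposition of cellulose and actin filaments carry vesicles. In the cotton boll they are best known from the fibre, a single seed coat cell that elongates after anthesis and expresses particular members of the large tubulin and actin families.

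The values are deposited log2 expression values, centred on the median of each probe set over the 24 arrays, so they show where a transcript was higher or lower among the arrays and not how abundant it was. With no absolute level, presence of boll or fibre markers could not be checked. Array medians lay between −0.055 and 0.051 and the SD over probe sets between 0.35 and 1.07, lowest in CN at 2 dpa and highest in BS at 10 dpa. A spiked-in RNA was read by 27 hybridization control probe sets, and these averaged 0.28, 0.58, 0.22 and 0.39 in BS at 0, 2, 5 and 10 dpa, against −0.30, −0.27, −0.50 and −0.28 in CN, and 42 poly-A control probe sets were likewise higher in BS. Their part in the results was not tested. If arrays are centred on the hybridization controls, the median BS minus CN difference of all probe sets is −0.67, −0.77, −0.83 and −0.59, against −0.08, 0.07, −0.11 and 0.08 as deposited. Directions are thus those of the authors' normalisation.

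The members were called down-regulated when the fold was at least 3 (1.58 on the log2 scale) with an adjusted p of at most 0.01 in limma. By this, 5, 16, 19 and 40 of the 45 members were down-regulated in BS at 0, 2, 5 and 10 dpa, beside 1.28%, 4.46%, 2.46% and 11.5% of all probe sets. Up-regulated were 0, 0, 0 and 1 members, beside 4.19%, 3.34%, 6.39% and 8.97% of all. Nothing is read from these counts, since this contrast picked the members. Under quantile normalization 32 members were down-regulated at 10 dpa, and Beta-tubulin 2 (−0.99) was among those no longer past the fold threshold. The median difference of the members was −0.87, −1.25, −1.28 and −3.13 at the 4 stages. By the means 41 members were lower in BS at all 4 stages and 1 was higher at all of them. BS and CN arrays did not overlap for 43, 43, 44 and 45 members, beside 59.4%, 68.6%, 67.3% and 75.6% of all probe sets. In such bulk samples, fewer cells of a type and less RNA per cell cannot be told apart.

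**Figure D1:**
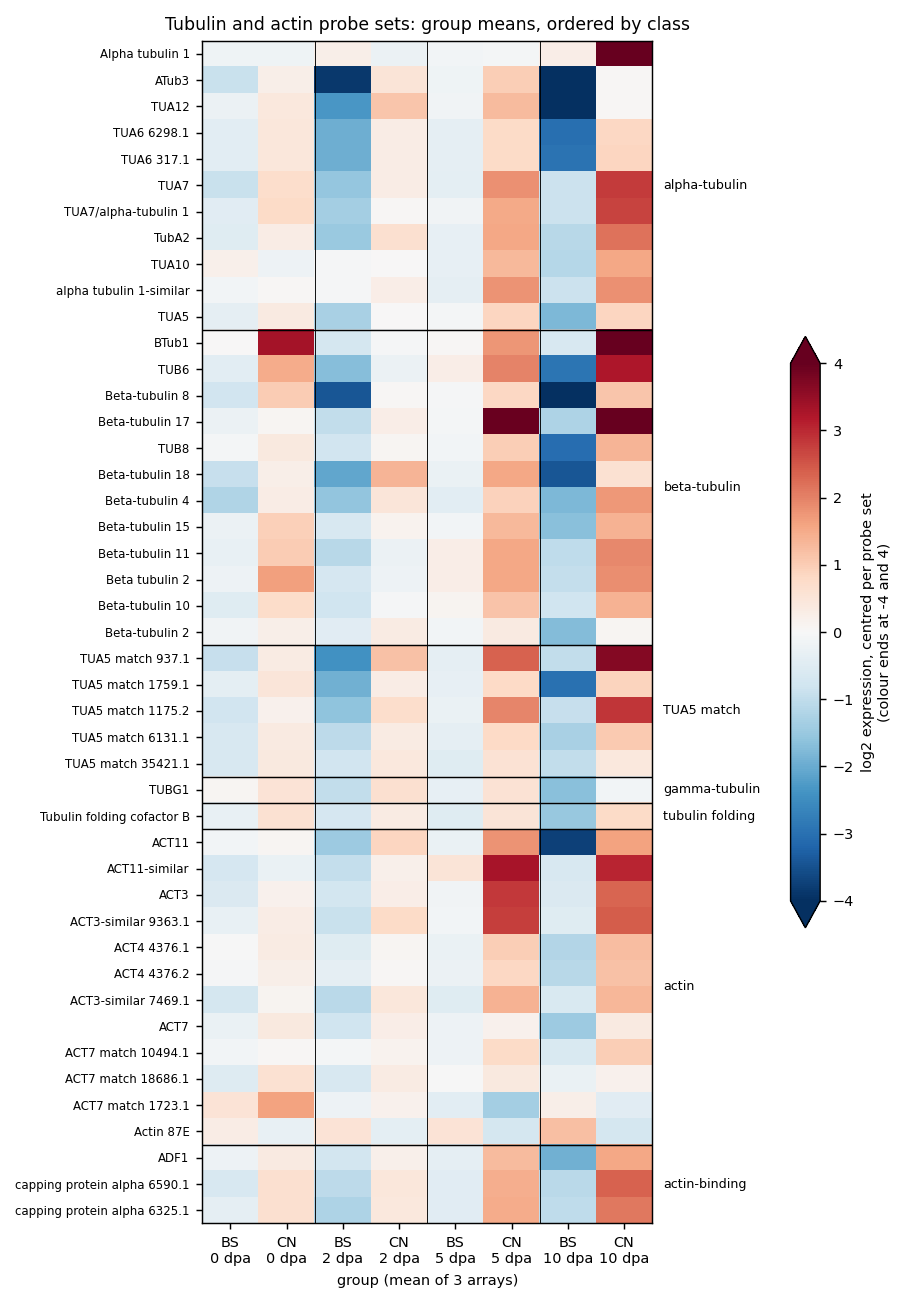
Group means (3 arrays each) of the 45 probe sets in log2 units centred per probe set, with BS left of CN at each stage and rows ordered by class and by the 10 dpa difference. Most rows are blue in BS and red in CN at 10 dpa, and the Actin 87E row runs the other way.

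A total of 3 members passed the thresholds at none of the stages, 15 at 1 stage, 16 at 2, 10 at 3 and 1 at all 4. The 3 passing at none were named only through the hormone table, which thus also lists probe sets under the fold threshold. Near the fold threshold at 10 dpa stood an ACT7-matched actin (Ghi.10494.1.S1_s_at, −1.60), just inside, and the gamma-tubulin TUBG1 (−1.57), just outside. Many probe sets of these families cannot separate near-identical copies, and 35 of the 45 have identifiers ending in _x_at or _s_at, which mark probes shared by several transcripts. The 34 members with a UniGene cluster belong to 31 clusters. Values of related members are therefore not independent, and the 2 TUA6 probe sets and a TUA5-matched probe set (Gra.1759.1.S1_s_at) gave −3.81, −3.87 and −3.87 at 10 dpa.

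**Figure D2:**
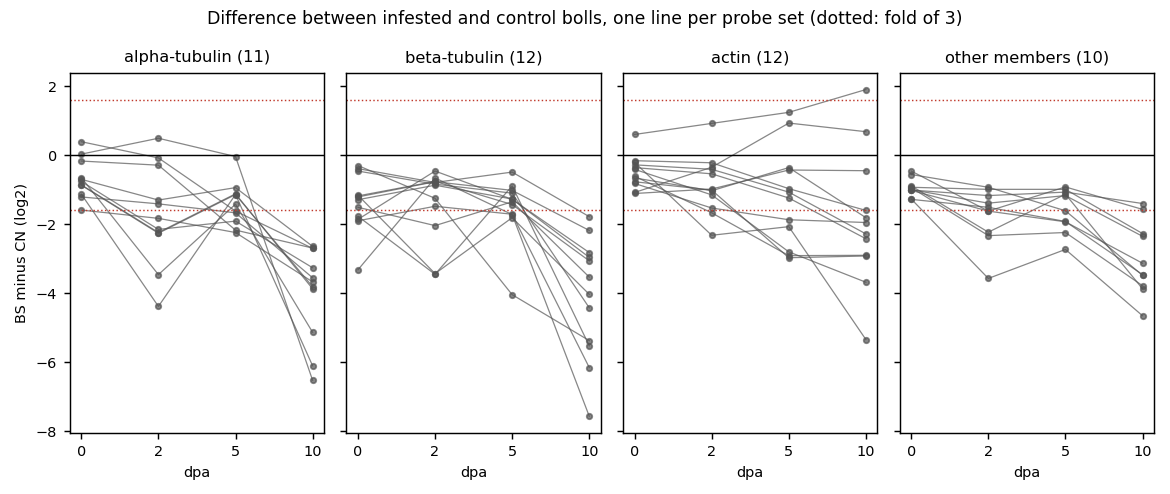
Fitted BS minus CN difference (log2, vertical axis) at 0, 2, 5 and 10 dpa (evenly spaced) for the 11 alpha-tubulins, 12 beta-tubulins, 12 actins and 10 other members, a line for each probe set, with the fold of 3 dotted. Differences at 10 dpa run down to −6.52 for an alpha-tubulin, −7.56 for a beta-tubulin and −5.34 for an actin, whereas Actin 87E lies above 0 throughout.

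All 11 alpha-tubulins were down-regulated at 10 dpa, between −6.52 and −2.64, with 1, 6 and 5 of them at 0, 2 and 5 dpa. Alpha-tubulin is the partner of beta-tubulin in the microtubule dimer, and its several genes differ in the tissue that uses them. The lowest 10 dpa difference belonged to the probe set described as Alpha tubulin 1 (Ghi.1314.3.A1_x_at). Its BS arrays read 0.01, −0.21 and −0.27 at 0 dpa, 0.23, 0.50 and −0.02 at 2 dpa, −0.10, −0.26 and 0.01 at 5 dpa and 0.11, 0.29 and 0.44 at 10 dpa. Its CN arrays read 0.10, −0.26 and −0.39, then −0.01, −0.23 and −0.52, then −0.40, −0.26 and 0.43, and at 10 dpa 6.84, 6.74 and 6.82. Only the 10 dpa CN arrays stood apart, and at the other stages the groups overlapped. The difference was −6.52 ± 0.18 (SE, n = 3 arrays per group) at 10 dpa, against 0.03, 0.49 and −0.04 before. The platform annotation places this probe set and TUA10 (Ghi.1314.1.S1_x_at) in the same RefSeq gene, yet TUA10 differed by 0.39 ± 0.08, −0.08, −1.62 and −2.70 at the 4 stages.

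The alpha-tubulin ATub3 (Ghi.6667.1.A1_s_at), described from cotton line Xu-142, differed at 2 and 10 dpa through low BS arrays. The BS arrays gave −0.86, −0.93 and −0.89 at 0 dpa, −3.88, −3.69 and −3.96 at 2 dpa, −0.22, −0.28 and −0.01 at 5 dpa and −6.03, −6.43 and −5.68 at 10 dpa. In CN the values were 0.20, 0.26 and 0.26, then 0.58, 0.49 and 0.53, then 1.10, 1.04 and 0.79, and 0.07, 0.01 and 0.09 at 10 dpa. Every BS array lay below every CN array of its stage. The differences were −1.13, −4.38, −1.14 and −6.10 (SE 0.13).

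TUA7 (Ghi.4663.1.A1_x_at) was the member past the thresholds at all 4 stages. In BS it measured −0.84, −0.91 and −0.94 at 0 dpa, −1.59, −1.50 and −1.52 at 2 dpa, −0.48, −0.47 and −0.26 at 5 dpa and −0.85, −0.84 and −0.90 at 10 dpa. In CN it measured 0.62, 0.74 and 0.72, then 0.34, 0.30 and 0.26, then 1.91, 1.82 and 1.77, and 2.85, 2.78 and 2.80. The BS means were lowest at 2 dpa and highest at 5 dpa, those of CN were higher at 5 and 10 dpa than before, and the differences were −1.59, −1.83, −2.24 and −3.67 (SE 0.06). The value at 0 dpa corresponds to a fold of 3.01, at the threshold itself.

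TUA5 (Ghi.7832.1.S1_at) had the smallest difference among alpha-tubulins at 10 dpa. Its BS arrays read −0.41, −0.37 and −0.25 at 0 dpa, −1.30, −1.33 and −1.27 at 2 dpa, 0.00, 0.10 and −0.31 at 5 dpa and −1.74, −1.79 and −1.83 at 10 dpa. The CN arrays read 0.42, 0.28 and 0.37, then 0.06, −0.00 and −0.04, then 0.78, 0.87 and 0.96, and 0.91, 0.81 and 0.82. The groups did not overlap at any stage, and the differences were −0.70, −1.30, −0.94 and −2.64 (SE 0.08). Of the other alpha-tubulins TUA12 reached −3.46 at 2 dpa and −5.13 at 10 dpa, TubA2 −2.15 and −3.26.

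The 12 beta-tubulins were all lower in BS at all 4 stages. Down-regulated were 4, 3 and 4 of them at 0, 2 and 5 dpa and all 12 at 10 dpa, between −7.56 and −1.78. The largest difference of any member was that of BTub1 (Ghi.8448.1.S1_x_at), also described from Xu-142. In BS its arrays stayed near the median of the probe set, at −0.03, −0.11 and 0.15 at 0 dpa, −0.61, −0.81 and −0.68 at 2 dpa, 0.24, −0.04 and −0.04 at 5 dpa and −0.68, −0.51 and −0.76 at 10 dpa. In CN they were 3.71, 3.01 and 3.25 at 0 dpa, 0.02, −0.13 and −0.02 at 2 dpa, 1.74, 1.66 and 1.94 at 5 dpa and 6.87, 7.12 and 6.76 at 10 dpa. The CN level was thus high at 0 dpa, low at 2 dpa and highest at 10 dpa. The differences were −3.32, −0.66, −1.72 and −7.56 (SE 0.14), the last a 189-fold lower signal in BS.

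TUB6 (Ghi.4629.1.S1_x_at), named after the Arabidopsis beta-tubulin and listed by RefSeq as BTub3, had the next largest difference among the beta-tubulins at 10 dpa. Its BS arrays gave −0.42, −0.50 and −0.38 at 0 dpa, −1.54, −1.73 and −1.87 at 2 dpa, 0.27, 0.20 and 0.37 at 5 dpa and −3.15, −2.75 and −2.85 at 10 dpa. Its CN arrays gave 1.44, 1.48 and 1.49, then −0.20, −0.27 and −0.22, then 2.03, 1.97 and 1.98, and 3.28, 3.18 and 3.26. The groups were apart at every stage, with differences of −1.90, −1.48, −1.71 and −6.15 (SE 0.09).

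Beta-tubulin 17 (Ghi.9446.1.S1_at) stood out at the later stages. The BS values were −0.07, −0.18 and −0.41 at 0 dpa, −0.54, −1.14 and −1.25 at 2 dpa, −0.22, −0.01 and 0.01 at 5 dpa and −1.25, −1.28 and −1.19 at 10 dpa. The CN values were 0.19, −0.01 and 0.07, then 0.13, 0.28 and 0.40, then 3.92, 3.93 and 4.04, and 4.18, 4.05 and 4.16. CN was high from 5 dpa on and BS never was, so the difference was −0.30 and −1.25 at 0 and 2 dpa but −4.04 and −5.37 at 5 and 10 dpa (SE 0.13).

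A pair of probe sets carry the name beta-tubulin 2. The G. raimondii-derived one, Beta tubulin 2 (Gra.2522.2.A1_x_at), had −0.18, −0.13 and −0.30 in BS at 0 dpa, −0.61, −0.69 and −0.71 at 2 dpa, 0.27, 0.41 and 0.13 at 5 dpa and −0.97, −1.03 and −0.84 at 10 dpa. In CN it had 1.86, 1.65 and 1.46, then −0.24, −0.22 and −0.18, then 1.53, 1.54 and 1.59, and 1.95, 1.93 and 1.74. Its 2 dpa CN arrays were the low ones, as for BTub1 and TUB6, and the differences were −1.86, −0.46, −1.28 and −2.82 (SE 0.09).

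The G. hirsutum probe set Beta-tubulin 2 (Ghi.6271.1.S1_x_at) had the smallest 10 dpa difference of its class. It read −0.14, −0.23 and −0.08 in BS at 0 dpa, −0.45, −0.48 and −0.43 at 2 dpa, −0.00, −0.08 and −0.29 at 5 dpa and −1.80, −1.77 and −1.58 at 10 dpa. In CN it read 0.27, 0.17 and 0.27, then 0.31, 0.40 and 0.29, then 0.24, 0.44 and 0.44, and 0.10, 0.10 and 0.00. CN was nearly level over the stages, and the differences were −0.39, −0.79, −0.49 and −1.78 (SE 0.08). Among the rest Beta-tubulin 8 had −3.45 at 2 dpa and −5.52 at 10 dpa and TUB8 −4.42 at 10 dpa.

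**Figure D3:**
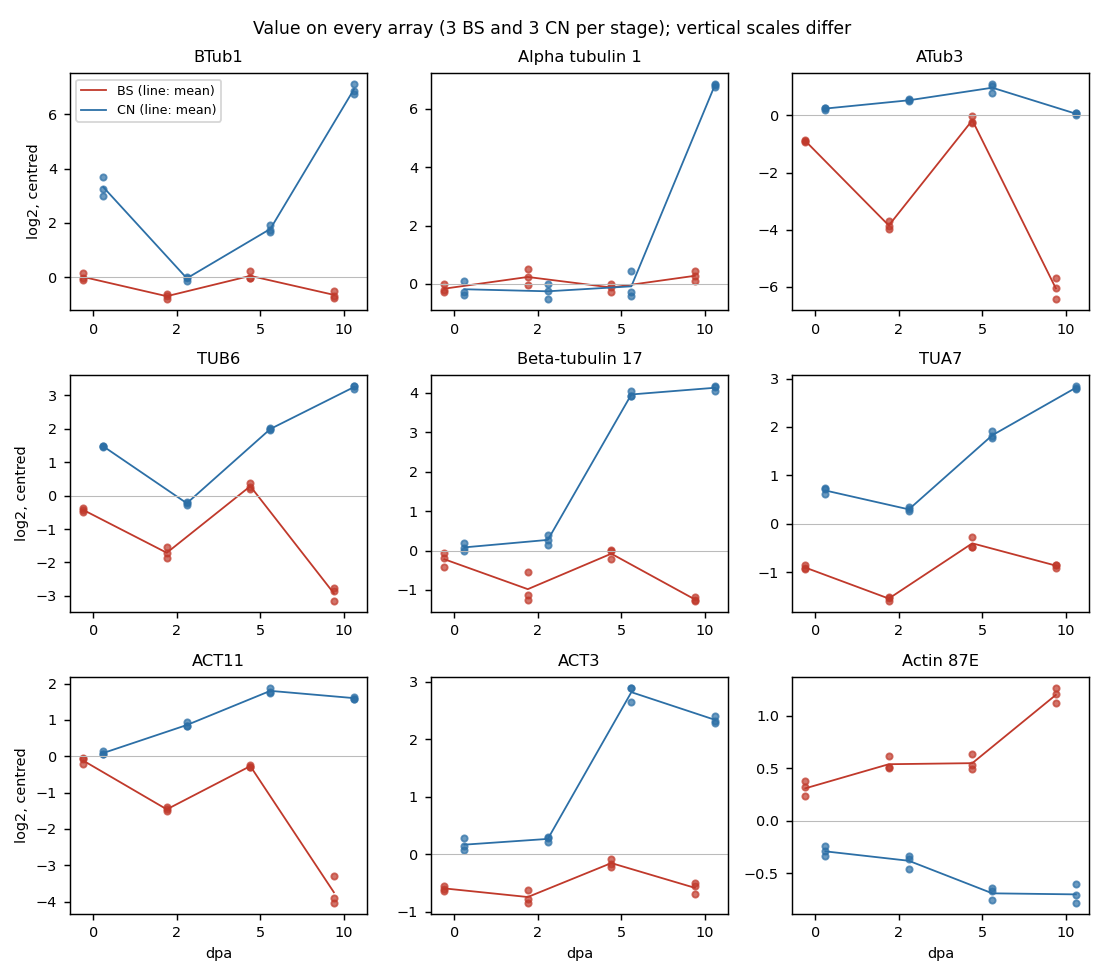
Value on every array (log2, centred per probe set) at 0, 2, 5 and 10 dpa, evenly spaced, for 9 members, with BS in red left of CN in blue and lines through the means of 3 arrays. BTub1 and Alpha tubulin 1 have high CN arrays at 10 dpa, ATub3 has low BS arrays at 2 and 10 dpa, and Actin 87E is higher in BS.

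Gamma-tubulin nucleates microtubules. The probe set TUBG1 (GhiAffx.24936.1.S1_at) had 0.05, 0.11 and 0.10 in BS at 0 dpa, −0.97, −0.95 and −1.0 at 2 dpa, −0.34, −0.35 and −0.31 at 5 dpa and −1.83, −1.66 and −1.55 at 10 dpa. In CN it had 0.54, 0.55 and 0.54, then 0.66, 0.64 and 0.64, then 0.62, 0.58 and 0.56, and −0.13, −0.05 and −0.15. Both groups were lowest at 10 dpa and did not overlap at any stage. The differences were −0.46, −1.62, −0.92 and −1.57 (SE 0.06), past the thresholds at 2 dpa only.

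Tubulin folding cofactor B (Ghi.7355.3.S1_s_at) binds newly made alpha-tubulin on its way to the dimer. BS arrays gave −0.38, −0.32 and −0.22 at 0 dpa, −0.71, −0.83 and −0.46 at 2 dpa, −0.62, −0.49 and −0.32 at 5 dpa and −1.34, −1.88 and −1.33 at 10 dpa. CN arrays gave 0.45, 0.64 and 0.77, then 0.30, 0.43 and 0.22, then 0.75, 0.51 and 0.29, and 0.72, 0.75 and 0.79. The groups were apart throughout, with differences of −0.93, −0.99, −0.99 and −2.27 (SE 0.14).

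Of the 5 tubulins known here only by their match to Arabidopsis TUA5, 4 were down-regulated at 10 dpa and 3 and 2 at 2 and 5 dpa. The lowest of them at 10 dpa, Gra.937.1.S1_s_at, had BS values of −0.93, −0.80 and −1.06 at 0 dpa, −2.48, −2.25 and −2.49 at 2 dpa, −0.28, −0.57 and −0.27 at 5 dpa and −0.74, −0.98 and −1.21 at 10 dpa. Its CN values were 0.38, 0.36 and 0.27, then 1.20, 1.20 and 1.07, then 2.53, 2.40 and 2.13, and 3.74, 3.69 and 3.60. CN was higher at each later stage while BS was not, and the differences were −1.27, −3.57, −2.73 and −4.65 (SE 0.11).

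The probe set Gra.1759.1.S1_s_at, which tracked TUA6, measured −0.36, −0.42 and −0.41 in BS at 0 dpa, −2.01, −1.91 and −1.83 at 2 dpa, −0.37, −0.39 and −0.27 at 5 dpa and −2.93, −3.02 and −3.02 at 10 dpa. In CN it measured 0.46, 0.51 and 0.50, then 0.35, 0.32 and 0.27, then 0.86, 0.76 and 0.75, and 0.89, 0.88 and 0.86. As for ATub3, the BS arrays at 2 and 10 dpa were the low ones, and the differences were −0.89, −2.23, −1.13 and −3.87 (SE 0.05).

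GhiAffx.35421.1.S1_at differed by about the same amount at each stage. BS arrays read −0.68, −0.63 and −0.60 at 0 dpa, −0.74, −0.76 and −0.79 at 2 dpa, −0.57, −0.62 and −0.29 at 5 dpa and −1.03, −1.02 and −0.90 at 10 dpa. CN arrays read 0.48, 0.37 and 0.29, then 0.41, 0.46 and 0.36, then 0.58, 0.62 and 0.52, and 0.41, 0.41 and 0.42. The differences were −1.01, −1.17, −1.07 and −1.40 (SE 0.07), under the fold threshold at all 4 stages. RefSeq lists a further TUA5-matched probe set, Ghi.1175.2.S1_s_at, as a beta-tubulin, BTub4, and it had −3.78 at 10 dpa.

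The 12 actins were more mixed. Down-regulated were 0, 2, 5 and 9 of them at 0, 2, 5 and 10 dpa, 10 were lower in BS by the means at 10 dpa and 2 were higher. ACT11 (Ghi.1927.1.S1_at), whose Arabidopsis namesake is an actin of reproductive tissue, had the lowest 10 dpa value of the class. In BS it read −0.22, −0.06 and −0.08 at 0 dpa, −1.46, −1.40 and −1.51 at 2 dpa, −0.29, −0.30 and −0.23 at 5 dpa and −3.30, −4.03 and −3.90 at 10 dpa. In CN it read 0.07, 0.14 and 0.06, then 0.93, 0.82 and 0.84, then 1.78, 1.89 and 1.73, and 1.58, 1.57 and 1.63. The BS arrays were lowest at 2 and 10 dpa, and the differences were −0.21, −2.32, −2.07 and −5.34 (SE 0.12).

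The transcript similar to Arabidopsis ACT11 (Ghi.7783.1.A1_s_at) differed chiefly because CN was high at 5 and 10 dpa. BS arrays gave −0.68, −0.66 and −0.71 at 0 dpa, −1.20, −0.65 and −1.03 at 2 dpa, 0.48, 0.51 and 0.55 at 5 dpa and −0.54, −0.57 and −0.78 at 10 dpa. CN arrays gave −0.31, −0.18 and −0.32, then 0.21, 0.19 and 0.18, then 3.30, 3.32 and 3.31, and 3.05, 2.99 and 3.11. The differences were −0.41, −1.15, −2.80 and −3.68 (SE 0.09).

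ACT3 (Ghi.7983.1.S1_s_at) had a like course. Its BS values were −0.60, −0.64 and −0.54 at 0 dpa, −0.62, −0.84 and −0.77 at 2 dpa, −0.17, −0.21 and −0.08 at 5 dpa and −0.55, −0.49 and −0.69 at 10 dpa. Its CN values were 0.15, 0.29 and 0.08, then 0.22, 0.30 and 0.28, then 2.90, 2.90 and 2.65, and 2.32, 2.41 and 2.29. BS was flat and CN had 2 levels, low up to 2 dpa and high from 5 dpa, with differences of −0.77, −1.01, −2.97 and −2.92 (SE 0.08). A related probe set similar to Arabidopsis ACT3 (Ghi.9363.1.S1_at) gave −0.61, −1.67, −2.91 and −2.90.

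Of the actins known only through a match to ACT7, a vegetative actin of Arabidopsis, GhiAffx.18686.1.S1_s_at had the smallest difference of the class at 10 dpa. It measured −0.25, −0.82 and −0.49 in BS at 0 dpa, −0.48, −0.67 and −0.77 at 2 dpa, −0.01, −0.06 and −0.01 at 5 dpa and −0.19, −0.50 and −0.12 at 10 dpa. In CN it measured 0.76, 0.61 and 0.42, then 0.50, 0.36 and 0.16, then 0.50, 0.43 and 0.27, and 0.28, 0.25 and 0.01. The groups did not overlap, but the gap was small, at −1.11, −0.98, −0.43 and −0.45 (SE 0.13).

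Actin 87E (Ghi.8872.1.S1_s_at) was the only member called up-regulated, at 10 dpa. Its description is that of a fruit fly actin, and whether its probes detect a cotton or an insect transcript was not tested. The BS arrays of Actin 87E gave 0.24, 0.32 and 0.38 at 0 dpa, 0.62, 0.50 and 0.51 at 2 dpa, 0.49, 0.53 and 0.64 at 5 dpa and 1.21, 1.27 and 1.12 at 10 dpa. Its CN arrays gave −0.29, −0.24 and −0.33, then −0.33, −0.36 and −0.46, then −0.67, −0.75 and −0.64, and −0.60, −0.78 and −0.71. Every BS array lay above every CN array, and the differences were 0.60, 0.92, 1.24 and 1.90 (SE 0.06). The call at 10 dpa was lost when arrays were centred on the hybridization controls (1.23) and under quantile normalization (1.41).

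The 3 actin-binding members were down-regulated at 5 and 10 dpa. ADF1 (Ghi.5050.1.S1_s_at), an actin depolymerizing factor that severs filaments and frees monomers, had BS values of −0.16, −0.16 and −0.24 at 0 dpa, −0.76, −0.71 and −0.75 at 2 dpa, −0.32, −0.43 and −0.29 at 5 dpa and −2.06, −1.77 and −1.96 at 10 dpa. Its CN values were 0.40, 0.42 and 0.31, then 0.16, 0.18 and 0.23, then 1.22, 1.31 and 1.25, and 1.49, 1.58 and 1.58. The groups were apart at each stage, with differences of −0.56, −0.93, −1.61 and −3.48 (SE 0.06). The 5 dpa value lay close to the fold threshold.

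The alpha subunit of F-actin capping protein, which blocks the growing end of filaments, was read by a pair of probe sets of 1 UniGene cluster. Ghi.6590.1.S1_s_at gave −0.64, −0.61 and −0.67 in BS at 0 dpa, −1.0, −1.23 and −0.93 at 2 dpa, −0.53, −0.56 and −0.29 at 5 dpa and −1.18, −0.79 and −1.29 at 10 dpa. In CN it gave 0.51, 0.71 and 0.69, then 0.49, 0.59 and 0.29, then 1.58, 1.47 and 1.34, and 2.27, 2.47 and 2.38. BS remained below 0 at every stage while the CN arrays were highest at 10 dpa, and the differences were −1.28, −1.51, −1.92 and −3.46 (SE 0.12).

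The other capping protein probe set, Ghi.6325.1.A1_s_at, read −0.38, −0.39 and −0.34 in BS at 0 dpa, −1.24, −1.19 and −1.23 at 2 dpa, −0.50, −0.47 and −0.34 at 5 dpa and −0.92, −1.10 and −1.06 at 10 dpa. In CN it read 0.64, 0.63 and 0.68, then 0.49, 0.40 and 0.34, then 1.56, 1.51 and 1.40, and 2.11, 2.10 and 2.10. Its differences of −1.02, −1.62, −1.93 and −3.13 (SE 0.06) lay close to those of the first probe set at each stage.

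Changes from stage to stage were tested within CN and within BS, in the same fit and with the same thresholds. These arrays also entered the contrasts that chose the members, so counts are given beside those of all probe sets. For the same reason the p-value of a member's step is no independent evidence of a change. In CN at 2 dpa relative to 0 dpa, 3 members were lower and 0 higher, beside 0.73% and 2.08% of all probe sets. All 3 were beta-tubulins. BTub1 fell by 3.36, the raimondii-derived Beta tubulin 2 by 1.87 and TUB6 by 1.70. Their 2 dpa CN arrays lay below all 0 dpa CN arrays. No p is printed for these falls, since the high 0 dpa CN arrays also gave BS minus CN differences.

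In CN at 5 dpa relative to 2 dpa, 8 members rose and 0 fell, beside 1.08% and 2.13% of all probe sets. They comprised 5 beta-tubulins and 3 actins and no alpha-tubulin. Beta-tubulin 17 rose by 3.69, the ACT11-similar actin by 3.12 and ACT3 by 2.55. No p is printed for these rises, since the high 5 dpa CN arrays also gave BS minus CN differences. All 11 alpha-tubulins were also higher by the means, between 0.15 and 1.56, without passing the fold threshold.

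In CN at 10 dpa relative to 5 dpa, 2 members rose and 0 fell, beside 1.41% and 0.542% of all probe sets. Alpha tubulin 1 rose by 6.88 ± 0.18 and BTub1 by 5.14 ± 0.14. No p is printed for these rises, which rest on the high 10 dpa CN arrays that also gave the BS minus CN differences. In the same interval of BS the 2 probe sets changed by 0.40 (adjusted p = 0.064, limma) and −0.70 (adjusted p = 0.00016), neither past the fold threshold. A further probe set, which is no member, is placed by the platform annotation in the RefSeq gene of Alpha tubulin 1 (TUA10 among its synonyms), whereas the study's tables describe it as similar to the cellulose synthase CESA8, so its identity is unsettled. It was itself chosen by those tables for its BS against CN difference. It had 0.19, 0.01 and 0.32 in BS at 10 dpa, against 6.91, 7.01 and 6.97 in CN. It rose by 7.01 ± 0.13 between 5 and 10 dpa in CN and changed by 0.28 in BS (adjusted p = 0.07). Its BS minus CN difference at 10 dpa was −6.79 ± 0.13. Both probe sets can share probes, so they do not count as separate transcripts.

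In BS the steps alternated. Relative to 0 dpa, 3 members fell at 2 dpa and 0 rose, beside 1.94% and 0.463% of all probe sets. From 2 to 5 dpa 8 rose and 0 fell, beside 2.63% and 0.53%, and from 5 to 10 dpa 13 fell and 0 rose, beside 4.95% and 1.18%. By the signs of the means 39 of the 45 members went down, up and down again. The share of all probe sets with these signs was not computed, and their median steps were 0.05, −0.06 and 0.10. ATub3, TUA12 and Beta-tubulin 8 were called at each of the 3 steps. ATub3 fell by 2.96, rose by 3.68 and fell by 5.88, with changes of 0.30, 0.44 and −0.92 in CN. No p is printed for ATub3, whose low BS arrays at 2 and 10 dpa also gave its differences from CN. TUA12 changed by −2.09, 2.18 and −4.94 and Beta-tubulin 8 by −2.65, 3.36 and −4.36. All 8 that rose from 2 to 5 dpa were tubulins. ACT11 (−3.47) was the only actin among the 13 that fell from 5 to 10 dpa, joined by ADF1 (−1.59). For ACT11 and ADF1 no p is printed either, since their low 10 dpa BS arrays also gave differences from CN.

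**Figure D4:**
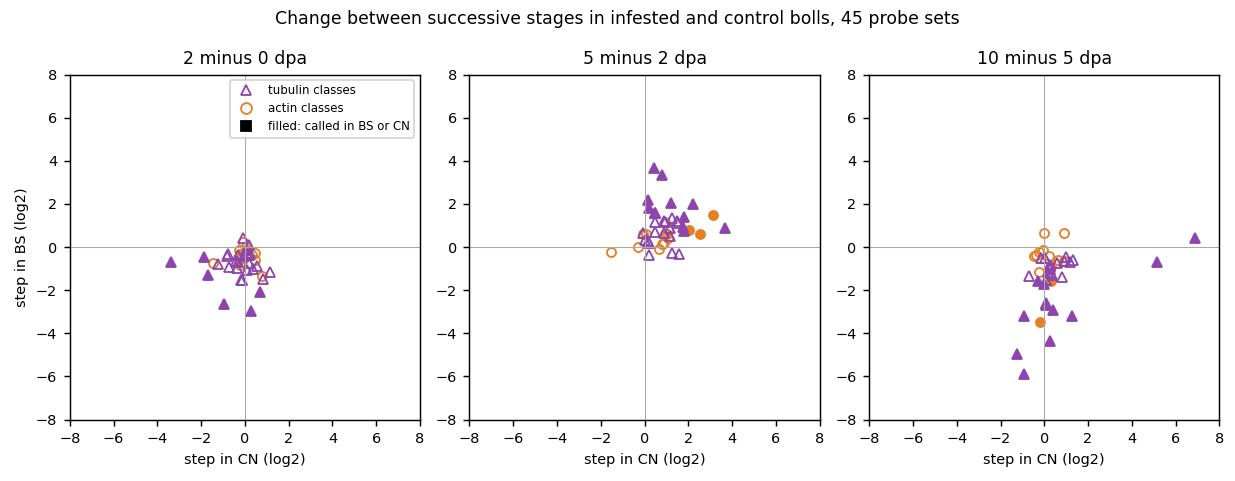
Change between successive stages (log2) of the 45 members in BS (vertical axis) against CN (horizontal axis), with triangles for tubulin classes, circles for actin classes and filled symbols for those past the thresholds in BS or CN. In the last panel Alpha tubulin 1 and BTub1 lie far right at 6.88 and 5.14, while ATub3 and TUA12 lie at the bottom at −5.88 and −4.94.

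The low BS values at 2 and 10 dpa were shared by cell cycle genes. The 32 probe sets of histones, cyclins and replication licensing factors in the study's tables averaged −0.34, −2.23, −0.23 and −2.84 in BS at 0, 2, 5 and 10 dpa, against 0.46, 0.68, 1.05 and 0.34 in CN. The 10 dpa BS arrays ranged from −2.86 to −2.83 and the 10 dpa CN arrays from 0.33 to 0.36. In BS 18 of the 32 fell at 2 dpa, 20 rose at 5 dpa and 23 fell at 10 dpa, beside 1.94%, 2.63% and 4.95% of all probe sets. The 23 green tissue probe sets averaged −0.62, −1.50, 0.40 and −0.84 in BS, against −0.48, 0.32, 0.96 and 1.23 in CN. Of these 23, 0 fell at 2 dpa, 20 rose at 5 dpa and 5 fell at 10 dpa in BS, so the rise at 5 dpa was not particular to cell cycle genes. The 3 fibre probe sets averaged −1.79, −2.38, −0.53 and −1.33 in BS, against 0.57, −0.30, 1.45 and 1.73 in CN. These lists come from tables of DETs, and the part of cell division, fibre or green tissue content in the values of tubulins and actins was not tested.

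The 2 dpa CN arrays were low for some members, as for BTub1 and TUB6, and high for others. With the average of the CN groups at 0 and 5 dpa as the baseline for 2 dpa BS, an alternative chosen after seeing the data, 29 members were down-regulated in place of 16 and the median difference was −2.18 in place of −1.25. The count and median of all probe sets under this baseline are not given, so nothing particular to the members is read from the change.

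Actins that the tables did not pick were compared in the same contrast, though their probe sets may measure some of the same transcripts as members. DETs needed a fold of at least 3, so actins missing from the tables were in part chosen for lying under it. That they stayed under this fold is therefore not a result. The platform annotation covers only 697 probe sets with 1 RefSeq gene, 13 of them members, and it named 3 further actins. The ACT1, ACT2 and ACT5 probe set had −0.98, −0.95 and −0.90 in BS at 10 dpa, against 0.49, 0.29 and 0.38 in CN. It differed by −0.34, −0.70, −0.84 and −1.33 (SE 0.07) with adjusted p of 0.00052, 3.7e-08, 1.9e-09 and 5.3e-13 (limma), each under the fold threshold. The ACT7, ACT8 and ACT9 probe set had −0.73, −0.72 and −0.65 in BS at 10 dpa, against 0.82, 0.75 and 0.85 in CN. It gave −0.27, −0.76, −0.89 and −1.50 (SE 0.07), with an adjusted p of 4.4e-14 at 10 dpa and again no fold of 3. The third, annotated with ACT6, ACT10, ACT12, ACT14 and ACTb, had 0.02, −0.01 and 0.08 in BS at 10 dpa, against −0.07, 0.22 and 0.16 in CN. Its groups overlapped at every stage, and its differences of −0.14, 0.06, −0.17 and −0.07 (SE 0.12) had adjusted p of 0.36, 0.7, 0.25 and 0.6.

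The array also carries 6 actin control probe sets that read the 5′, middle and 3′ parts of a G. hirsutum and a G. raimondii actin. They were left out with the other controls and put back into the same fit after the data had been seen. All 3 hirsutum parts were lower in BS at every stage. The 3′ part read −1.19, −1.19 and −1.05 in BS at 10 dpa, against 1.19, 1.11 and 1.20 in CN, and differed by −0.38, −0.54, −1.21 and −2.31 (SE 0.06). The middle part differed by −2.58 and the 5′ part by −2.37 at 10 dpa. The ACT4 members gave −2.42 (Ghi.4376.1.S1_x_at) and −2.28 (Ghi.4376.2.S1_a_at) at that stage, and RefSeq lists the second of these as ACT11. The first read −1.22, −1.21 and −1.11 in BS at 10 dpa and 1.30, 1.14 and 1.27 in CN, close to the 3′ part of the control. The hirsutum control may thus read a transcript that the tables did pick, so no p is printed for it.

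The raimondii control behaved differently. Its 3′ part had 0.69, 0.69 and 0.67 in BS at 10 dpa, against −0.69, −0.29 and −0.53 in CN. It differed by −0.51, 0.29, 0.71 and 1.19 (SE 0.08) at the 4 stages. The middle part of this control differed by −0.74, 0.09, 0.93 and 0.99 and its 5′ part by −0.52, −0.17, −0.48 and −0.21. The actin that this control reads was thus lower in BS at 0 dpa and its middle and 3′ parts were higher at 5 and 10 dpa. The CN means of the 3′ part were 1.03, −0.14, −1.31 and −0.50. Those of a member matched to ACT7 (Ghi.1723.1.S1_s_at) were 1.62, 0.16, −1.36 and −0.44, and it differed by −1.08, −0.35, 0.93 and 0.68. The raimondii control may thus also read a transcript that the tables did pick, so no p is printed for it.

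**Figure D5:**
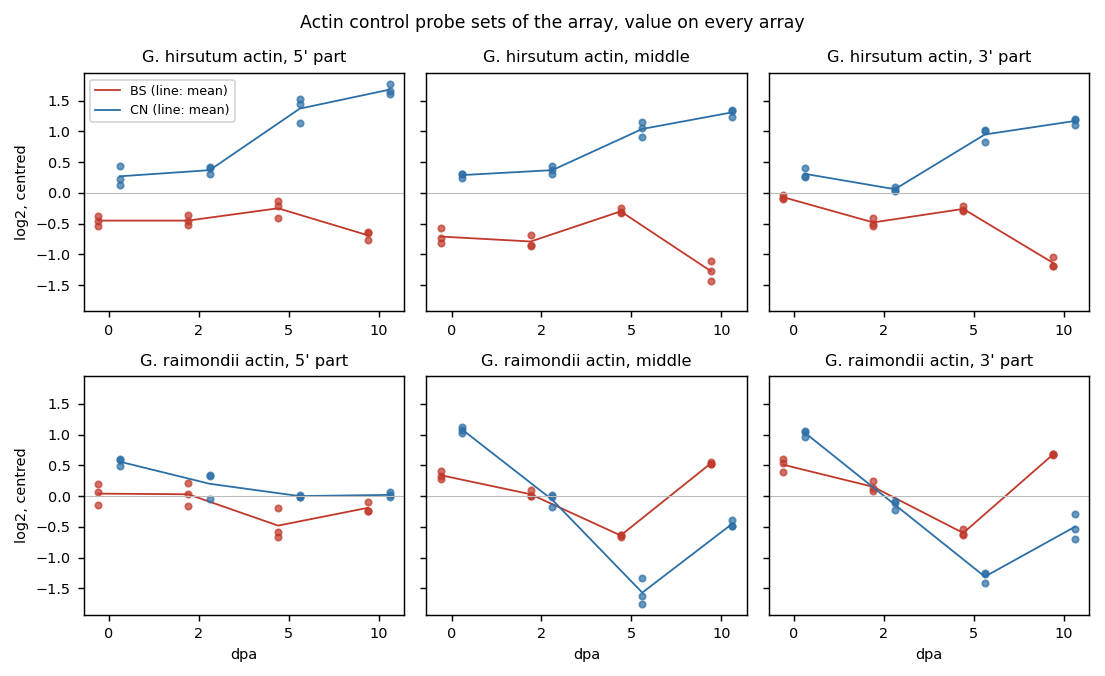
Value on every array (log2, centred) of the 6 actin control probe sets at 0, 2, 5 and 10 dpa (evenly spaced), with BS in red left of CN in blue and lines through the means of 3 arrays. The hirsutum parts are below CN at each stage, and the 3′ part of the raimondii actin is at 0.69, 0.69 and 0.67 in BS at 10 dpa, above its CN arrays.

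The difference between the 5′ and 3′ parts of the same transcript depends among other things on how intact the RNA was. For the hirsutum control, 5′ minus 3′ averaged −0.38, 0.03, 0.01 and 0.45 in BS at 0, 2, 5 and 10 dpa, against −0.04, 0.31, 0.42 and 0.51 in CN. At 10 dpa the BS arrays read 0.53, 0.42 and 0.41, against 0.58, 0.49 and 0.46 in CN, and overlapped. For the raimondii control it averaged −0.48, −0.12, 0.12 and −0.87 in BS, against −0.47, 0.34, 1.31 and 0.52 in CN. In the hirsutum control the mean was lower in BS at each stage, least so at 10 dpa. In the raimondii control it was about equal at 0 dpa and lower in BS at the later stages. The part of RNA integrity in the results was not tested.

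Other cytoskeleton genes of the study's tables, found by fixed words such as kinesin, myosin, annexin or profilin, were described in the same way. Of these 24 probe sets 0, 9, 5 and 22 were down-regulated at 0, 2, 5 and 10 dpa, beside 1.28%, 4.46%, 2.46% and 11.5% of all probe sets. Up-regulated were 0, 1, 1 and 0, beside 4.19%, 3.34%, 6.39% and 8.97%. The medians were −0.58, −1.08, −1.0 and −2.83. This contrast also picked these probe sets, so nothing is read from the counts. Profilin, which binds actin monomers, had −0.06, 0.16, −0.33 and −5.82. In CN it had risen between 5 and 10 dpa by 5.60, as had Rac9, a small GTPase, by 2.25, the 2 rises of this list at that step. A FRA1-like kinesin, whose Arabidopsis namesake was found through weak stem fibres, had −1.05, −0.92, −2.19 and −5.52, and another kinesin −0.22, −2.69, −1.37 and −5.43. The up-regulated probe set, named after its values were seen, was described as SPIRAL1-LIKE5, a microtubule-associated protein, and had 2.62 at 2 dpa and 2.89 at 5 dpa. Another probe set with the same description had 0.01, 0.22, 0.01 and −1.75 at the 4 stages and was down-regulated at 10 dpa.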

How the data were processed

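Transcripts were measured on 24 Affymetrix Cotton GeneChip arrays. The deposited log2 expression values were made by the authors with RMA in GeneSpring GX, a method that corrects background, quantile-normalises the arrays and summarises the probes of a set. By the values themselves, each of the 24132 rows is centred on its median over the arrays (within 1e-06 of 0), so absolute levels and signal over background are lost and no filter on dim probe sets was possible.

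The 103 AFFX and 52 RPTR control probe sets were left out. With limma 3.58.1 in R 4.3.3, 8 group means were fitted to all arrays (16 residual and 3.525 prior degrees of freedom), and p-values were adjusted by Benjamini-Hochberg over 23977 probe sets for each contrast. A call required both a fold of 3 or more and an adjusted p no higher than 0.01. Errors are limma standard errors. Precision is limited by having 3 arrays a group, for which the exact 2-sided permutation p cannot go below 0.1, and p-values measure the spread between pools. Groups came from the labels. The code was tested on simulated data.

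The members and gene lists were chosen with earlier results of these data known. Values on all arrays are given, for each class, for the 2 members lowest and the 1 closest to 0 at 10 dpa, and also for members called at all 4 stages or upward and for up to 3 called per step and direction in CN. Replicate numbers mark no shared source in the labels, and of 12 correlations between the deviations of same-numbered BS and CN arrays 1 exceeded 0.1 (range −0.24 to 0.108), so arrays were not paired. Alternatives were quantile normalization, other centring of the arrays, leaving out each array, a replicate block, fits on 2 groups, the methods' t-test, a fold of 2 and subsets of the members. A different 2 dpa baseline and the return of the actin controls were added after seeing the data. RefSeq names follow assembly Gossypium_hirsutum_v2.1.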

Additional observations from a re-analysis of the deposited data

Results flagged for a closer look

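An actin matched to ACT7 (Ghi.1723.1.S1_s_at), named after its values were seen, lay lower in all BS arrays than in all CN arrays at 0 and 2 dpa (−1.08 and −0.35) and higher at 5 and 10 dpa (0.93 and 0.68, SE 0.07). The change of direction between stages was not tested. In CN it fell by 1.46 at 2 dpa (adjusted p = 6.5e-13) and by 1.52 at 5 dpa (adjusted p = 2.9e-13), each under the fold of 3.

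TUA10 was higher in all BS than in all CN arrays at 0 dpa (0.39) and lower at 5 and 10 dpa (−1.62 and −2.70, SE 0.08), and this change of direction was not tested either.

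The 3′ part of the raimondii actin control, which belongs to the control probe sets set aside, was higher in BS than in CN at 10 dpa by 1.19.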

How the results depend on the processing

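The arrays give no signal over background, and values of near-identical gene copies are not separated. Centring on the hybridization controls gave 19, 35 and 39 members down-regulated in BS at 0, 2 and 5 dpa in place of 5, 16 and 19, 0 up-regulated at 10 dpa in place of 1, 8 lower in BS at 2 than at 0 dpa in place of 3 and 13 higher at 5 than at 2 dpa in place of 8. Of all 23977 probe sets it gave 1132, 3336 and 2958 down-regulated at 0, 2 and 5 dpa in place of 306, 1070 and 589. The median differences of the members became −1.45, −2.09, −2.01 and −3.79. This centring lowers every BS array relative to CN by construction. For the settings that follow, counts over all probe sets are not given, so nothing about the members is read from changes in their counts.

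Quantile normalization gave 15 down-regulated at 0 dpa in place of 5, and at 10 dpa 32 in place of 40 down-regulated and 0 in place of 1 up-regulated. In CN at 2 against 0 dpa it gave 5 lower and 3 higher in place of 3 and 0, and in BS 1 lower at 2 dpa, 5 higher at 5 dpa and 7 lower at 10 dpa in place of 3, 8 and 13. The medians were −1.13, −1.14, −1.33 and −2.08. Centring on array medians gave −0.82, −1.22 and −3.18 at 0, 5 and 10 dpa. By construction, quantile normalization gives all arrays 1 distribution. It thus narrows the wide BS arrays at 10 dpa (SD up to 1.07 as deposited) and widens the narrow CN arrays at 2 dpa (down to 0.35). The share of this rescaling in the shifts was not tested.

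With a fold of 2, 19, 27 and 34 members were down-regulated at 0, 2 and 5 dpa and 1 was up-regulated at 5 dpa. In CN 5 were lower and 1 higher at 2 dpa, 19 higher and 1 lower at 5 dpa and 5 higher and 1 lower at 10 dpa, and in BS 12 were lower at 2 dpa, 18 higher at 5 dpa and 22 lower at 10 dpa. Setting 2 dpa BS against 0 and 5 dpa CN gave 29 down-regulated and a median of −2.18.

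Only 10 members remain without _x_at and _s_at probe sets. Of these, 1, 5, 4 and 8 were down-regulated over the stages and 0 passed upward at 10 dpa, with medians of −0.63, −1.57 and −2.77 at 0, 2 and 10 dpa. In CN 0 were lower at 2 dpa, 2 higher at 5 dpa and 0 higher at 10 dpa, and in BS 2 were higher at 5 dpa and 4 lower at 10 dpa. With 1 probe set per UniGene cluster the 10 dpa median was −3.09, and without members named only through the hormone table the medians were −0.77, −1.42 and −3.26 at 0, 5 and 10 dpa.

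Leaving out single arrays gave 4 to 5, 16 to 17, 18 to 19 and 39 to 40 members down-regulated, with medians of −0.89 to −0.86, −1.30 to −1.15, −1.31 to −1.24 and −3.18 to −3.09. In CN the counts were 3 lower, 8 to 9 higher and 2 higher over the steps, and in BS 3 lower, 6 to 9 higher and 11 to 12 lower. The fit with a replicate block gave the same counts, 5, 16, 19 and 40 down-regulated, as the fit without it. The methods' t-test, after Benjamini-Hochberg and with the same fold, gave 5, 16, 19 and 39. Of 990 recomputed BS minus CN differences of the named members none that was called changed sign. A change of sign was seen in 9 uncalled ones, all of Alpha tubulin 1 at 0, 2 or 5 dpa. Stage steps were not part of this check.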
